A study of Mus musculus with 4 samples.

Results

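The genes of AMP-activated protein kinase (AMPK) were followed through the deposited comparisons of N6-methyladenosine (m6A) on RNA in MIN6, an insulin-secreting tumour cell line of mouse that stands in for beta cells of the pancreas (strain C57BL/6 in the labels). The members are the 7 genes for the alpha (Prkaa1, Prkaa2), beta (Prkab1, Prkab2) and gamma (Prkag1, Prkag2, Prkag3) subunits, taken by name, and each was looked up by its Ensembl ID among the 9225 gene IDs of the authors' list of genes related to differential peaks. The cells had received 10 µg per dish of a GR expression vector or of a control vector, and RNA was taken 24 h later. Both arms were grown in 25 mM glucose and transfected with a Lipofectamine reagent, so expression was transient. GR is read here as the glucocorticoid receptor, which the labels give only by the abbreviation. There were 4 libraries, namely GR IP, GR input, control IP and control input, where IP is RNA immunoprecipitated with an anti-m6A antibody. Each arm had 1 library of each kind, so no difference here has a replicate check. The tables analysed compare the arms and give nothing for a single library, so depth and RNA level are unknown. Of all protein-coding genes, 25.2% were in the gene table. Of 8 beta cell markers, Ins1, Pdx1, Mafa, Nkx6-1 and Slc2a2 were in it (62.5%), while Ins2, Neurod1 and Iapp were not. Of the other islet markers 1 of 5 (Gcg) and of the exocrine markers 0 of 4 were, numbers too small to set apart from that share.

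AMPK is a trimer that senses low cellular energy. The alpha subunit carries the kinase domain, the beta subunit holds the trimer together and binds glycogen, and the gamma subunit binds AMP, ADP and ATP through CBS domains. Once an upstream kinase such as LKB1 has phosphorylated it, AMPK turns off fatty acid and protein synthesis, restrains mTORC1 and favours autophagy, in part through ULK1. In beta cells it responds to the fall of glucose. m6A is a methyl mark on adenosines of mRNA that reader proteins recognise, and it can change the stability and translation of a transcript.

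Of the 7 subunit genes, 2 were in the gene table, the gamma subunit gene Prkag1 and the beta subunit gene Prkab1. Prkag1 (ENSMUSG00000067713) was on 7 lines and Prkab1 (ENSMUSG00000029513) on 1 line. Both catalytic subunit genes, Prkaa1 and Prkaa2, were absent, as were Prkab2, Prkag2 and Prkag3. The beta and gamma families thus had 1 listed gene each, and the alpha family had none. The share of 28.6% is near that of protein-coding genes as a whole, of which 25.2% were listed, and is no result about the subunits as a group. No table gives a peak, a fold change or a direction for Prkag1 or Prkab1, so whether their m6A was higher or lower with GR is not known.

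The 5 absent genes cannot be read as genes without a differential peak. The authors' separate table of autophagy genes has peaks for 22 genes, of which 13 are missing from the gene table. Line numbers also differ from its peak numbers, with 2 lines for Ulk3, which has 1 deposited peak, and 1 line for Atg4c, which has 2. Since genes of one table are missing from the other, whether lines count peaks cannot be told from this. None of the 7 subunit genes is in that autophagy table.

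**Figure D1:**
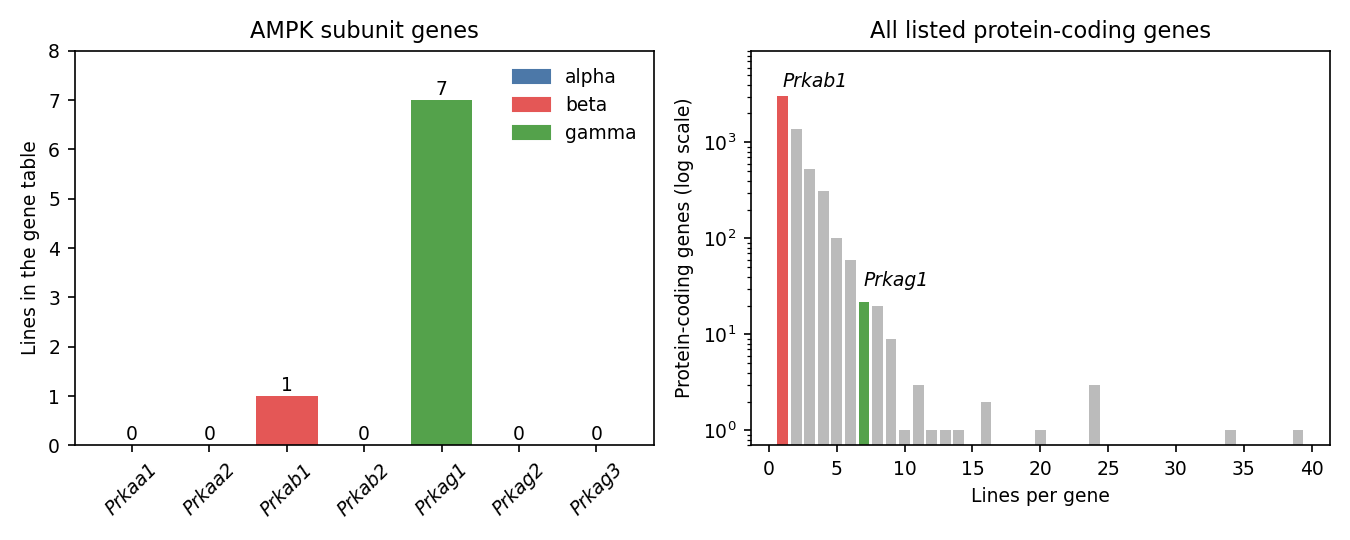
Left, lines in the gene table (y axis) for each of the 7 AMPK subunit genes, coloured by subunit. Right, number of listed protein-coding genes (y axis, log scale) by lines per gene (x axis). Prkab1 has 1 line, as most listed genes have, and Prkag1 has 7.

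Prkag1 stands in the upper tail of the gene table by its number of lines. Of all protein-coding genes, 0.301% were on 7 or more lines, and of the listed gene IDs of every class 1.19% were. The median listed protein-coding gene had 1 line, and 55.5% had no more than that, Prkab1 among them. The 7 lines of Prkag1 are identical in all 3 columns, and the meaning of a repeated line is not given in the sources used here. In all, 22 protein-coding genes had exactly 7 lines. Among them were Eif5b, a translation initiation factor, Oaz2, an inhibitor of ornithine decarboxylase, Son, a splicing cofactor, Sp3, a transcription factor, Pcdh17, a protocadherin, and Thtpa, thiamine triphosphatase. The others besides Prkag1 were Ajm1, Ccdc138, Chml, Crybg3, Fhdc1, Flrt1, Fut11, Gm37013, Hebp2, Mea1, Rnf44, Wdsub1, Xkr4, Zim1 and Zscan29. They were grouped by line number, and their lengths run from 4.21 kb (Thtpa) to 889 kb (Gm37013), with Prkag1 at 18.7 kb.

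The alpha genes lie on chromosomes 15 and 4 (coordinates of GRCm38.p6, on which mm10 is based). Prkaa1, encoding alpha 1, covers 5143861 to 5181899 of chromosome 15 and had no line. The next gene on the same strand, Ttc33, begins 3590 bases after it and had 6 lines. Prkaa2, encoding alpha 2, covers 105029649 to 105109898 of chromosome 4, and neither it nor any gene within 20000 bases of it was listed.

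The beta genes were split. Prkab1, encoding beta 1, covers 116013586 to 116024503 of chromosome 5, and no other gene within 20000 bases was listed. Its line carries the deposited names of the glycogen-binding domain and of the ASC domain, the part of beta subunits that contacts the other subunits. No other listed gene shares these names, which follows from domain annotation and is no result about m6A. The broader names on the same line, immunoglobulin E-set and immunoglobulin-like fold, are on 36 and 148 listed gene IDs. Prkab2, encoding beta 2, covers 97658211 to 97673812 of chromosome 3 and had no line. The microRNA gene Mir7225, 16696 bases away, had 2 lines.

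Of the gamma genes, Prkag1 covers 98812797 to 98831508 of chromosome 15 on the minus strand. The histone methyltransferase gene Kmt2d, also on the minus strand, ends 160 bases from the start of Prkag1 and had 4 lines of its own. With no peak positions in the gene table, whether any line of Prkag1 comes from signal at the end of Kmt2d was not tested. The other genes within 20000 bases, B130046B21Rik, Ddn and Wnt1, had no line. Besides Prkag1, the deposited name of the CBS domain is carried by listed genes such as Cbs, Cnnm2, Cnnm3, Impdh1 and Impdh2. Cnnm2 had 2 lines and the others named had 1 each.

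Prkag2, encoding gamma 2, covers 24862735 to 25106282 of chromosome 5 and is the longest of the subunit genes at 244 kb. It overlaps 6 long non-coding RNA genes, and neither it nor these were listed. Prkag3, encoding the gamma 3 subunit known mainly from skeletal muscle, covers 74738922 to 74749471 of chromosome 1 and had no line. The share of listed genes varied with gene length, being lowest in the shortest and next lowest in the longest of 10 length classes. Of protein-coding genes in the same length class, 29.1% were listed for Prkag1, 31.6% for Prkab1 and Prkag3, 32.6% for Prkab2, 25.4% for Prkaa1, 23.8% for Prkaa2 and 17.4% for Prkag2. Prkag3 and Prkab1 fall in the same length class, and the first was absent while the second was listed. Whether length bears on which subunits were listed was not tested.

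The genes around AMPK that were listed had 1 or 2 lines each. Across upstream kinases, binding regulators, substrates and related kinases, 14 of 51 genes (27.5%) were in the gene table, again near the 25.2% of all protein-coding genes. Of 8 genes of the upstream kinases, only Cab39 was listed, with 1 line. It encodes MO25, the scaffold of the LKB1 complex. Stk11, which encodes LKB1 itself, Cab39l, Strada, Stradb, Camkk1 and Camkk2 were absent. Of 8 binding regulators, Axin1, a scaffold of LKB1 and AMPK, and Sesn1, a stress-induced sestrin, had 1 line each. Flcn, Fnip1, Fnip2, Lamtor1, Sesn2 and Sesn3 were absent.

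Of 22 substrates and targets, 8 were listed (36.4%), beside 25.2% of all protein-coding genes. Foxo3, a transcription factor that AMPK phosphorylates, had 2 lines. Acacb, the acetyl-CoA carboxylase of mitochondrial fatty acid control, Becn1, an autophagy initiator, and Crtc2, a coactivator of CREB, had 1 line each. Acaca, Ulk1, Rptor, Tsc2, Tbc1d4 and Ppargc1a were absent. Of the 13 AMPK-related kinases, most of which LKB1 also phosphorylates, Sik1 had 2 lines and Brsk1 and Brsk2 had 1 each, whereas Sik2, Sik3, Nuak1, Nuak2, Mark1 and Mark2 were absent. Among 6 genes of protein kinase A, another kinase with regulatory and catalytic subunits, 3 were listed (50%). These lists are small, and their difference from the 25.2% was not tested. The catalytic subunit gene Prkaca had 1 line, and the regulatory subunit genes Prkar1a and Prkar2b had 3 and 1. Prkag1 thus had more lines than any gene of these 5 lists, a comparison of line numbers that has no test.

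**Figure D2:**
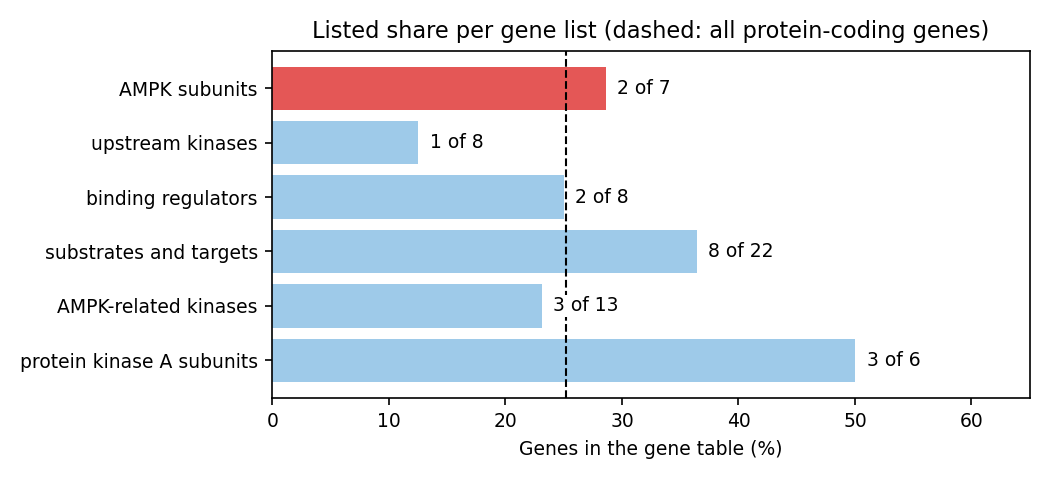
Share of genes in the gene table (x axis, percent) for the AMPK subunits and 5 related lists, with the listed number and list size beside each bar. The dashed line is the 25.2% of all protein-coding genes, and the AMPK subunits stand at 28.6%.

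Fold changes were deposited only for the peaks of autophagy genes, so any gene of these lists with one had to be an autophagy gene. Only 2 genes of these lists have such a peak, and both are from the list of substrates and targets. Ulk1, the kinase that starts autophagy, had a log2 fold change (GR over control, as the table's name gives it) of -1.75 in the authors' deposited table, for a peak on chromosome 5 from 110785578 to 110786182 centred in the 3' UTR. Atg9a, a lipid scramblase and the other of the pair, chosen after its value was seen, had -2.12 in the authors' deposited table, for a 3' UTR peak on chromosome 1 from 75181490 to 75181858. Both are lower with GR, as are all 31 peaks of the authors' deposited table, so their direction sets them apart from no other gene there. Neither Ulk1 nor Atg9a is in the gene table.

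The deposited KEGG table counts the listed genes per pathway. Prkab1 and Prkag1 occurred in the same 12 of its 290 pathways and in no others, and no other subunit occurred in any. Both points follow from which genes are listed and from KEGG's assignments, and are no result about m6A. In the authors' deposited table, the adjusted p of all 12 lay under 0.05, which 66.9% of the 290 pathways reached, so this marks out neither gene. The 12 are not separate results, since Akt2 was counted in 9 of them and Irs1, Irs2, Pik3r1, Pik3r3 and Pik3cd in 8. Some of these are found in many pathways, as Akt2 is in 73, whereas Irs2 was counted in 12 and the subunits in these 12 only.

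In the authors' deposited table, the AMPK signaling row had 48 input IDs (47 Entrez genes, 42 by their own ID) against 129 background genes (p = 7.02e-05, adjusted 2.12e-04) and stood at rank 96 by p. A gene is counted by its own ID where the input has the gene itself and not merely another gene model mapped to its Entrez number. The smallest p among the 12 belonged to non-alcoholic fatty liver disease, with 83 input IDs (68 Entrez genes, 57 by their own ID) against 157 background genes (p = 4.42e-13, adjusted 1.07e-11, rank 12) in the authors' deposited table. Insulin signaling followed in the authors' deposited table with 78 IDs (62 Entrez genes, 57 by their own ID) against 142 (p = 5.09e-13, adjusted 1.13e-11, rank 13). FoxO signaling had 63 IDs (59 Entrez genes, 53 by their own ID) against 135 (p = 1.14e-08, adjusted 9.47e-08, rank 35) in the authors' deposited table. AMPK signaling ranked below 8 of the other 11 by that p, beside which the table counts IDs. Several IDs can map to 1 gene, and this raised the counts of the rows to different degrees, so the order by p is not one of genes listed. By their own ID, 32.6% of background genes were counted in AMPK signaling, 36.3% in non-alcoholic fatty liver disease, 40.1% in insulin signaling, 39.3% in FoxO signaling and 39.1% in mTOR signaling.

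The mTOR signaling row held none of the subunits. A row can hold only listed genes that KEGG assigns to the pathway, and the table does not give the unlisted members, so this says nothing about m6A on the subunits. The row had 84 input IDs (69 Entrez genes, 61 by their own ID) against 156 (p = 1.51e-13, adjusted 3.98e-12, rank 11) in the authors' deposited table. PI3K-Akt signaling (rank 9) and regulation of autophagy (rank 226, adjusted p = 0.213, from the authors' deposited table) held none either.

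The other rows with both genes were, in order of their p in the authors' deposited table, oxytocin signaling (7.33e-08), insulin resistance (7.92e-07), glucagon signaling (1.02e-06), longevity regulation in multiple species (6.62e-06) and longevity regulation (3.88e-05). Below AMPK signaling came adipocytokine signaling (2.10e-04), circadian rhythm (0.0015) and hypertrophic cardiomyopathy (0.00711) in the authors' deposited table.

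**Figure D3:**
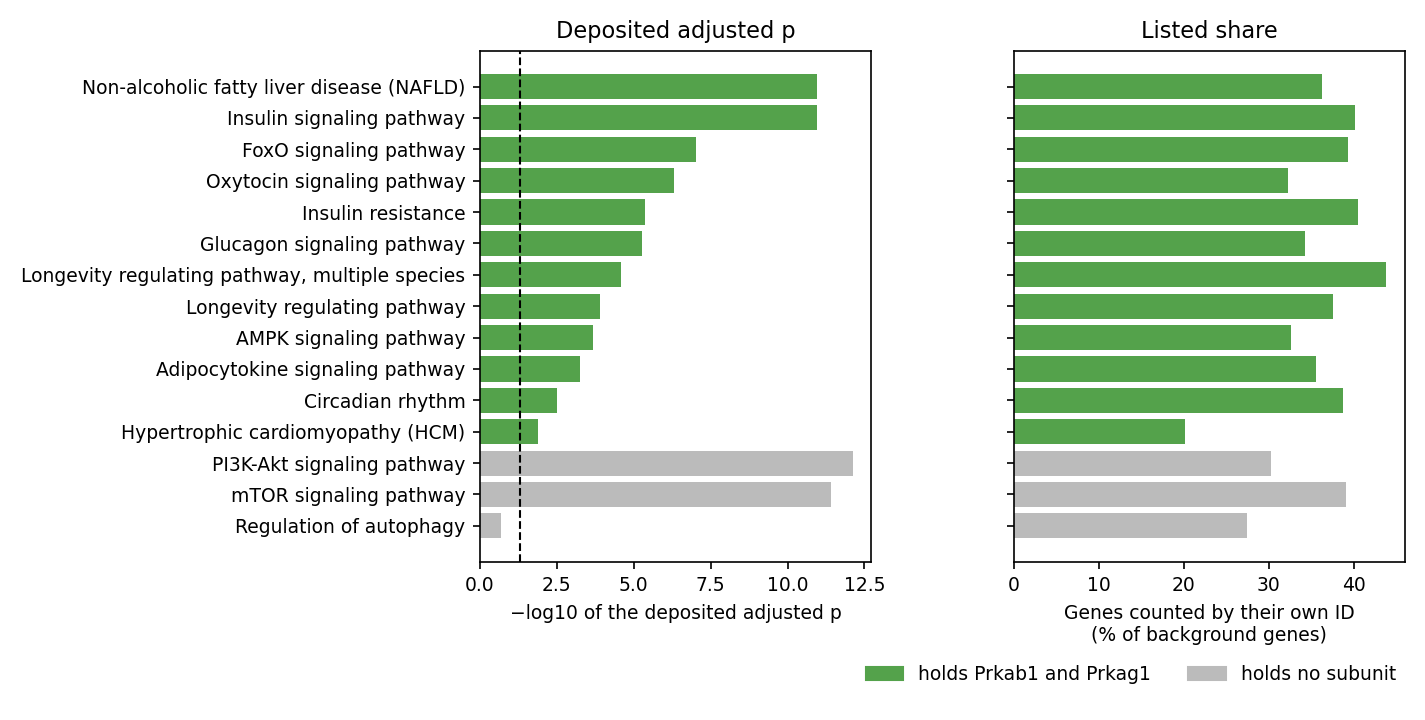
Left, minus log10 of the deposited adjusted p (x axis) for the 12 pathways with Prkab1 and Prkag1 (green) and 3 related pathways with no subunit (grey), with a dashed line at 0.05. Right, genes counted by their own ID as a percentage of background genes (x axis). AMPK signaling lies at 32.6% on the right and hypertrophic cardiomyopathy, at 20.2%, is the lowest.

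Part of the input came from gene models mapped to the Entrez number of another gene. In the AMPK signaling row, 6 of the 48 IDs carried another reference name than the gene they were mapped to. These were Gm12978 (4 lines, counted as Pik3cb), Gm19221 (2 lines, counted as Ppp2r2a), and, with 1 line each, Gm9110 as Rab11b, 6530437J22Rik as Cpt1c, Gm8091 as Scd2 and Gm14143 as Eif4ebp1. Of the genes behind them, Ppp2r2a was listed itself and the other 5 were not. That left the 42 genes counted by their own ID. Over all 290 pathways the median percentage of background genes counted this way was 30.7%. Over the 12 with subunits it ran between 20.2% and 43.8%, with a median of 36.9%, and 11 of them lay above 30.7%. These 12 share genes and were picked for holding listed genes, and the difference was not tested. In both listed subunits the ID counted was the gene itself.

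Prkag1 had the most lines of the 42 genes, and 30 of the 42 had 1 line. Grouped by role after the table was seen, the next was Irs2, the insulin receptor substrate that beta cells depend on, with 6 lines in a group of 6 genes for receptors, insulin and its substrates. In that group Adipor2, an adiponectin receptor upstream of AMPK, had 3 lines, and Cd36, Igf1r, Ins1 and Irs1 had 1 each. Scaffold and regulatory subunits of protein phosphatase 2A, which can remove the activating phosphate from AMPK, gave 7 genes, led by Ppp2r5c with 3 lines and Ppp2r2d with 2.

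Enzymes of glycolysis and gluconeogenesis also gave 7 genes. Fbp1, fructose-bisphosphatase, had 3 lines, Pck2 and G6pc3 had 2, and G6pc2, the islet form of glucose-6-phosphatase, had 1. Of the lipid genes, Mlycd, which breaks down the malonyl-CoA that acetyl-CoA carboxylase makes, had 3 lines. Acacb, Cpt1b and Srebf1 had 1 each. In a group for mTOR signaling and trafficking, Rheb, Rps6kb2 and Tbc1d1 had 1 line each.

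**Figure D4:**
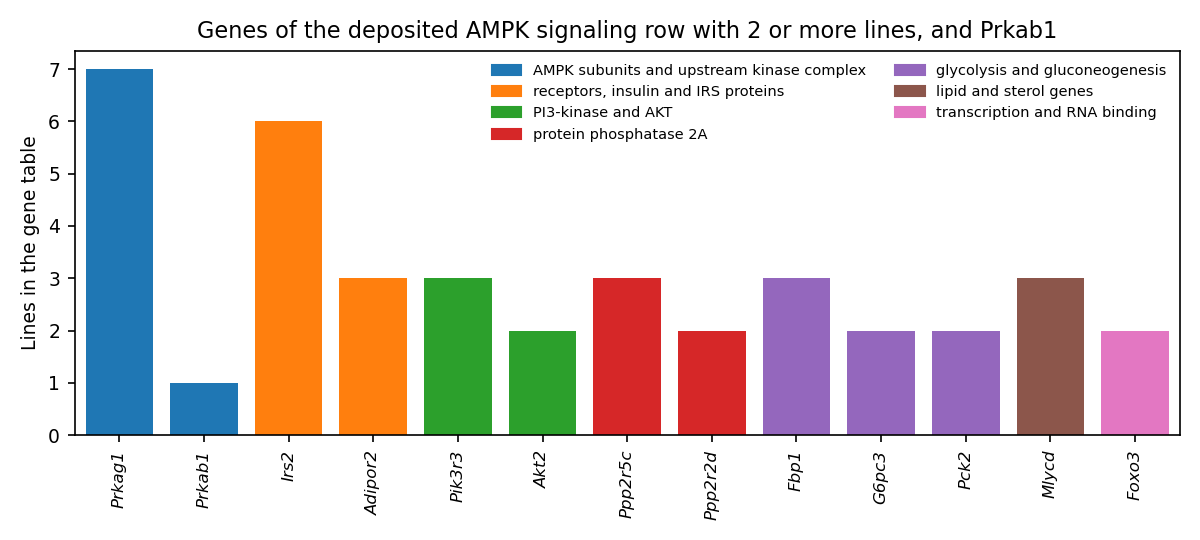
Lines in the gene table (y axis) for Prkab1 and for the 12 genes with 2 or more lines among those counted by their own ID in the deposited AMPK signaling pathway (x axis), coloured by role. The 30 genes with 1 line are not drawn, except Prkab1. Prkag1 with 7 lines and Irs2 with 6 stand above the rest.

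The Gene Ontology (GO) table held at least 1 subunit in 156 of 16568 terms. Prkag1 was in 139 and Prkab1 in 105, with 88 in common. By kind, 96 were biological processes, 34 molecular functions and 26 cellular components, and 112 held more than 1000 background genes. In the authors' deposited table p is 1 for every term, these included, so none is called. Of 20770 background genes, 10022 (48.3%) have a peak by the total printed on every row there. The terms themselves name 5409 distinct IDs, or 26%, and what the larger total counts is not given in the sources used here.

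The smallest term with either gene was AMP-activated protein kinase activity, in which Prkab1 and Prkag1 were the 2 listed of 7 background genes. The nucleotide-activated protein kinase complex had 6 listed of 13, the others being Prkaca, Prkar1a, Sik1 and Nim1k. Protein kinase complex had 45 of 110 and fatty acid biosynthetic process 41 of 135, both with Prkab1 and Prkag1.

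By their GO annotation, the pair differed in nucleotide binding, nuclear transport and thermogenesis terms. Both genes are listed, so which terms hold each follows from that annotation and says nothing about m6A on them. Of the 51 terms with Prkag1 and not Prkab1, the smallest were AMP binding, with 8 listed genes of 18, and ADP binding, with 11 of 40. Among larger ones were import into nucleus, with 62 of 174, and nucleocytoplasmic transport, with 116 of 316. The other listed genes for AMP binding include Aprt with 6 lines, Fbp1 with 3 and Pygm with 2. Of the 17 terms with Prkab1 and not Prkag1, the smallest were nail development, with 4 of 10, and positive regulation of cold-induced thermogenesis, with 23 of 85. Cold-induced thermogenesis had 36 of 129.

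Terms with a subunit held listed genes at about the usual share. Over the 25 terms of 10 to 500 background genes with a subunit, the median share listed was 29.6%, against 30.3% for all 8064 terms of that size. The 25 overlap and are not separate results, since nucleocytoplasmic transport and nuclear transport, for example, both had 116 of 316. The lowest share of the 156 was in molecular transducer activity, with 196 of 2526 (7.76%), which held both. None of the 156 names insulin, glucose, autophagy or mTOR, which follows from the GO annotation of Prkab1 and Prkag1 and is no result of the comparison.

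**Figure D5:**
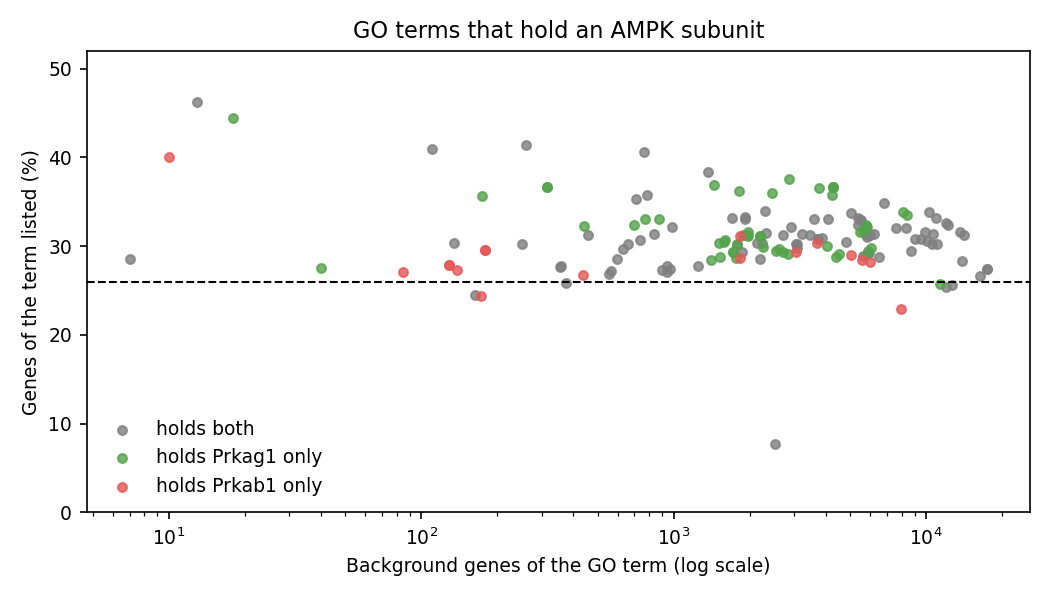
Share of a GO term's genes that were listed (y axis, percent) against its background genes (x axis, log scale) for the 156 terms with an AMPK subunit. The dashed line is the 26% of background genes found in any term's list, and most points lie between 25% and 40%. All 156 lie below the 48.3% of the deposited totals, which is not drawn.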

How the data were processed

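RNA of MIN6 cells was fragmented, immunoprecipitated with an anti-m6A antibody and sequenced in read pairs, as were the inputs, per the labels' protocols. BWA 0.7.12, HOMER 4.9.1 and mm10 appear in the submitters' processing notes, with no role given. The program and limits behind the differential peaks are not given in the sources used here. The authors deposited p-values for KEGG pathways (hypergeometric or Fisher test, Benjamini and Hochberg correction, per the file headers) and GO terms, and log2 fold changes of autophagy peaks, whose sign is read from the table's name (GR against control).

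Lines of the gene table were counted by Ensembl ID. Symbols were looked up by ID (9217 of 9225 found), and coordinates, classes and lengths of 21900 protein-coding genes came from RefSeq for GRCm38.p6. The 63 overflow lines of the GO table were joined to their terms, after which every gene list had its deposited length. No test of differences was possible, and shares are descriptions. Parsing was tested on simulated data. Counting used Python 3.11.15 and figures Matplotlib 3.10.9.

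The members and lists were chosen with earlier results of these data known. Named were all subunits, every listed gene of a list with 6 or fewer and otherwise the 4 with most lines, up to 6 absent genes, every pathway with a subunit and the 6 smallest GO terms of each. Genes with as many lines as Prkag1 are named too. Genes of the AMPK pathway row, neighbours and domain sharers were chosen after their values were seen. Alternatives were matching by deposited symbol, a background of all genes, distinct lines, an adjusted p below 0.01, Entrez genes, GO terms of 10 to 500 genes and leaving out AMPK-related kinases. Added after the data were seen were genes counted by their own ID and the inclusion of autophagy peaks. Some genes of these lists and rows are not reported here.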

Additional observations from a re-analysis of the deposited data

How the results depend on the processing

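Prkab1 and Prkag1 were the 2 listed subunits by Ensembl ID, by deposited symbol and with genes of the autophagy table added. The background share of 25.2% was 14.6% over every gene of the reference, most of which are not protein-coding. The 8 lines of the subunits were 2 when identical lines were counted once, since all lines of Prkag1 are alike. The 156 GO terms with a subunit were 25 when terms were kept to 10 to 500 background genes, as 112 hold over 1000. The 12 called pathways were 11 at 0.01. Other counts stayed within 1.5 times. No paired analysis was possible because each arm has 1 library of each kind and no value per library is used, and no library could be left out. Depth is unknown, and without peak positions the direction and place of any change in the subunits cannot be given.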
